A study of Homo sapiens with 6 samples.

Results

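Long non-coding RNAs of imprinted loci were followed in U-2OS cells, a human osteosarcoma line, in 3 libraries with an SFPQ-directed siRNA (siSFPQ) and 3 with a control siRNA (siCtrl). Actinomycin D, which blocks transcription, had been added to the cells of all 6 libraries, so no untreated group stands beside them; the dose and duration are not given in the sources used here. SFPQ is an RNA-binding protein of nuclear paraspeckles. SFPQ mRNA was not analysed here, which leaves the extent of the knockdown unknown, and the groups are those of the labels. RNA was selected for poly(A) tails, and the table holds read counts per gene for 35036 non-coding genes. The RNAs were chosen by name: SNHG14, PWAR6, IPW, KCNQ1OT1, H19, MEG3, GNAS-AS1 and PEG13, 8 names of which 6 had a row. Of these, 4 had enough reads to test, SNHG14, H19, KCNQ1OT1 and GNAS-AS1, and MEG3 and PEG13 were near 0.

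An imprinted gene is transcribed mainly or only from the copy inherited from 1 parent, a choice set by DNA methylation at a control region laid down in the egg or sperm. Most imprinted clusters contain a long non-coding RNA, and some of these RNAs silence neighbouring genes on their own chromosome. SNHG14, KCNQ1OT1, GNAS-AS1 and PEG13 are known as paternally expressed, and H19 and MEG3 as maternally expressed. The counts do not separate the parental copies, and in bulk RNA fewer expressing cells and less RNA per cell cannot be told apart. With actinomycin D in all 6 libraries, lower synthesis and faster loss of an RNA cannot be told apart either. Fold changes are relative to the tested non-coding genes, from which the libraries were scaled.

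Total counts ran from 1298658 to 1599566 in the siSFPQ libraries and from 1385532 to 1533974 in the siCtrl libraries. These totals cover non-coding genes only and are not the sequencing depth. The 6 measured RNAs took 0.126% to 0.130% of the counts in siSFPQ libraries and 0.237% to 0.255% in siCtrl libraries. Whether each library had its own culture is not stated in the labels, so p-values measure only the spread between these samples, which may be technical. Of 12 rows marking blood, neural, liver, muscle or stem cells, 7 had no count and HULC, a liver RNA, was the sole row with enough counts to test, at 11.1 ± 1.05 CPM in siSFPQ and 10.4 ± 4.72 CPM in siCtrl (CPM, counts scaled to a common table total per library; SD, n = 3 each). The row named HULC spans 858592 bases with 58813 exonic bases, and whether its reads are of the liver RNA was not tested. The list holds no marker of osteosarcoma cells, so the line itself was not checked.

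The first comparison asked how each of the RNAs differed between siSFPQ and siCtrl cells. SNHG14 and H19 were lower in siSFPQ, and KCNQ1OT1 and GNAS-AS1 did not pass the test. With edgeR (quasi-likelihood F-tests, p-values adjusted by Benjamini-Hochberg over 6325 tested genes), 2 of the 4 tested RNAs were called lower and 0 higher (0 higher also at an unadjusted p under 0.05, and 0 with DESeq2 and limma-voom). Among all tested genes, 24.0% were called lower and 24.5% higher at an adjusted p under 0.05, and 48.4% were called in either direction, so 2 of 4 is near the background share. The size of the falls was less common: 5.38% of tested genes were called lower with a log2 fold change of -1 or beyond, SNHG14 and H19 among them. The median log2 fold change was -0.69 over the 4 RNAs and 0.01 over all tested genes.

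SNHG14 is the host transcript of the Prader-Willi and Angelman syndrome region, whose introns carry the SNORD116 and SNORD115 small nucleolar RNAs and whose far end runs antisense to the ubiquitin ligase gene UBE3A. Its row (ENSG00000224078, plus strand, chromosome 15, 24978583 to 25420336) held 1486, 1774 and 1755 counts in siSFPQ libraries and 3109, 3353 and 3181 in siCtrl libraries. In CPM these were levels of 1135, 1105 and 1135 in siSFPQ, against 2219, 2278 and 2380 in siCtrl. Every siSFPQ library lay below every siCtrl library, as the groups did, in one direction or the other, for 54.0% of tested genes. The log2 fold change was -1.03 ± 0.05 (SE, edgeR, adjusted p = 2.97e-98), a level 0.491 times that of siCtrl. SNHG14 spread little within a group, with an SD of 17.1 CPM in siSFPQ and 81.5 CPM in siCtrl.

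H19 is a short spliced RNA, abundant in fetal tissues, that carries the microRNA miR-675 and lies next to the growth factor gene IGF2, which is expressed from the other parental copy. Its row (ENSG00000130600, minus strand, chromosome 11, 1995165 to 2004552) held 61, 83 and 48 counts in siSFPQ libraries and 219, 195 and 214 in siCtrl libraries. The levels were 46.6, 51.7 and 31.0 CPM in siSFPQ, against 156, 132 and 160 CPM in siCtrl. The groups did not overlap, and the highest siSFPQ library was well under the lowest siCtrl library. The log2 fold change was -1.79 ± 0.12 (SE, edgeR, adjusted p = 1.43e-49), or 0.289 times the siCtrl level. None of the exons of H19 in GENCODE release 29 overlaps a coding exon of that release.

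KCNQ1OT1 is a long, mostly unspliced RNA transcribed from inside the potassium channel gene KCNQ1 on the opposite strand, known for silencing neighbouring genes in cis. Its row (ENSG00000269821, minus strand, chromosome 11, 2597308 to 2699988) had levels of 29.8, 31.8 and 23.3 CPM in siSFPQ and 35.0, 42.1 and 30.7 CPM in siCtrl. The highest siSFPQ library was above the lowest siCtrl library, so the groups overlapped. The log2 fold change of -0.35 ± 0.18 (SE) was not called (edgeR, adjusted p = 0.101). Without siCtrl replicate 3 it was -0.46 and was called (edgeR, adjusted p = 0.047), so 1 library decides the call. Of the KCNQ1OT1 exonic bases in GENCODE 29, 121 are also exon of KCNQ1 on the other strand. Those exonic bases form 1 block of 91667 bases. As the counts were read as not separating strands, reads of KCNQ1 introns may be counted in this row too.

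GNAS-AS1 is the antisense RNA of the GNAS locus, which encodes the stimulatory G protein alpha subunit. Its row (ENSG00000235590, minus strand, chromosome 20, 58818893 to 58855296) had levels of 78.7, 72.3 and 67.2 CPM in siSFPQ and 62.1, 65.9 and 69.6 CPM in siCtrl. The groups overlapped, and the log2 fold change of 0.14 ± 0.13 (SE) was not called (edgeR, adjusted p = 0.375). Of its exonic bases in GENCODE 29, 30.8% are also exon of GNAS on the other strand, whose reads these counts may hold.

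**Figure D1:**
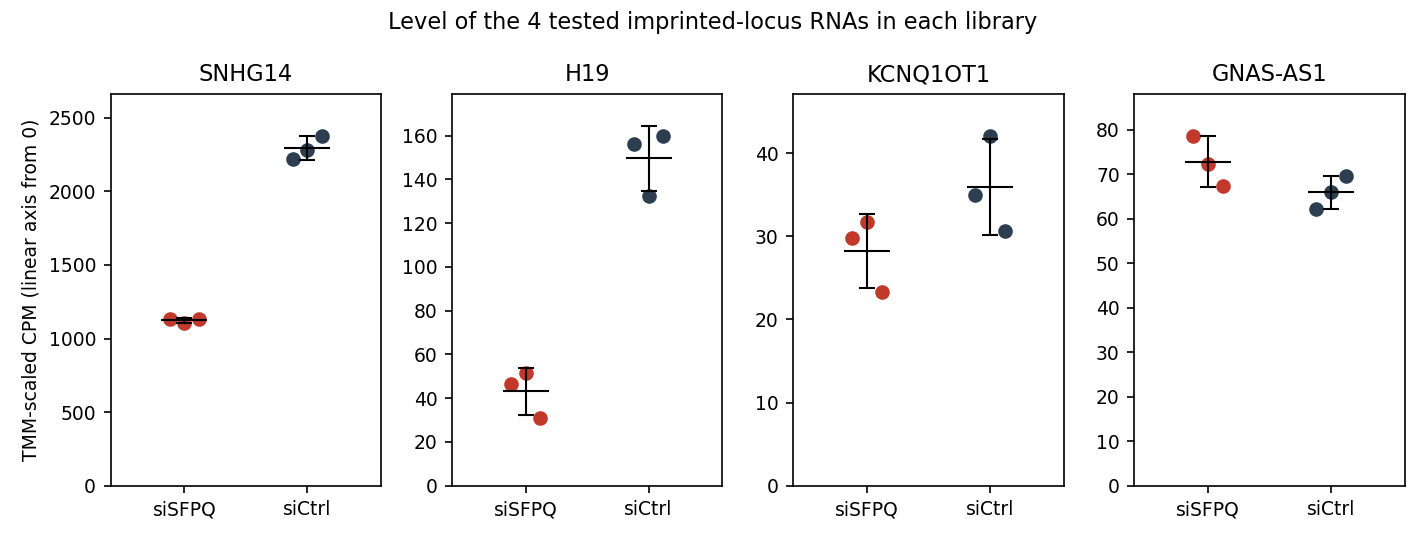
Levels of SNHG14, H19, KCNQ1OT1 and GNAS-AS1 in TMM-scaled CPM on linear axes from 0, with each library as a point and the mean ± SD of 3 libraries as black bars, siSFPQ left and siCtrl right. For SNHG14 and H19 all siSFPQ points lie below all siCtrl points, while the groups overlap for KCNQ1OT1 and GNAS-AS1.

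MEG3, a maternally expressed RNA of the chromosome 14 imprinted cluster (ENSG00000214548, 100779206 to 100861018), had 0 counts over the siSFPQ libraries and 2 over the siCtrl libraries. A count of 0 allows up to 3 counts over the group, or 0.672 CPM in siSFPQ, and both groups lay at or under that floor, so no fold is given. The rest of that cluster was near 0 as well. MEG8 had 15 counts over siSFPQ and 9 over siCtrl libraries, MEG9 had 2 and 1, DIO3OS had 0 and 1, and the microRNA host MIR493HG had none. PEG13, which lies inside the gene TRAPPC9 on chromosome 8 (ENSG00000282164, 140092781 to 140100543), had 5 counts over siSFPQ and 2 over siCtrl libraries. Their ratio of 2.36 has a 95% exact counting interval of 0.386 to 24.8, so no difference was detectable at this depth; intervals and floors cover counting error only.

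PWAR6 and IPW, non-coding RNAs of the Prader-Willi region, had no row under their names and were not analysed here as genes of their own. Both lie inside the listed span of SNHG14 and on its strand. IPW spans chromosome 15, 25116545 to 25122476 in RefSeq on GRCh38, and 75.8% of those bases are SNHG14 exon in GENCODE 29. PWAR6 spans 25031873 to 25036490, and none of its bases is SNHG14 exon in that release. The table lists 124307 exonic bases for SNHG14, against 43324 in GENCODE 29, so the counted exons were not those of that release, and whether they held PWAR6 was not tested. SNHG14 exons in GENCODE 29 also share bases with exons of coding genes, 141 with SNRPN and 1049 with AC124312.1 on the same strand and 198 with UBE3A on the other. The SNHG14 row is thus a count over the locus that may hold reads of PWAR6, IPW and these coding genes.

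**Figure D2:**
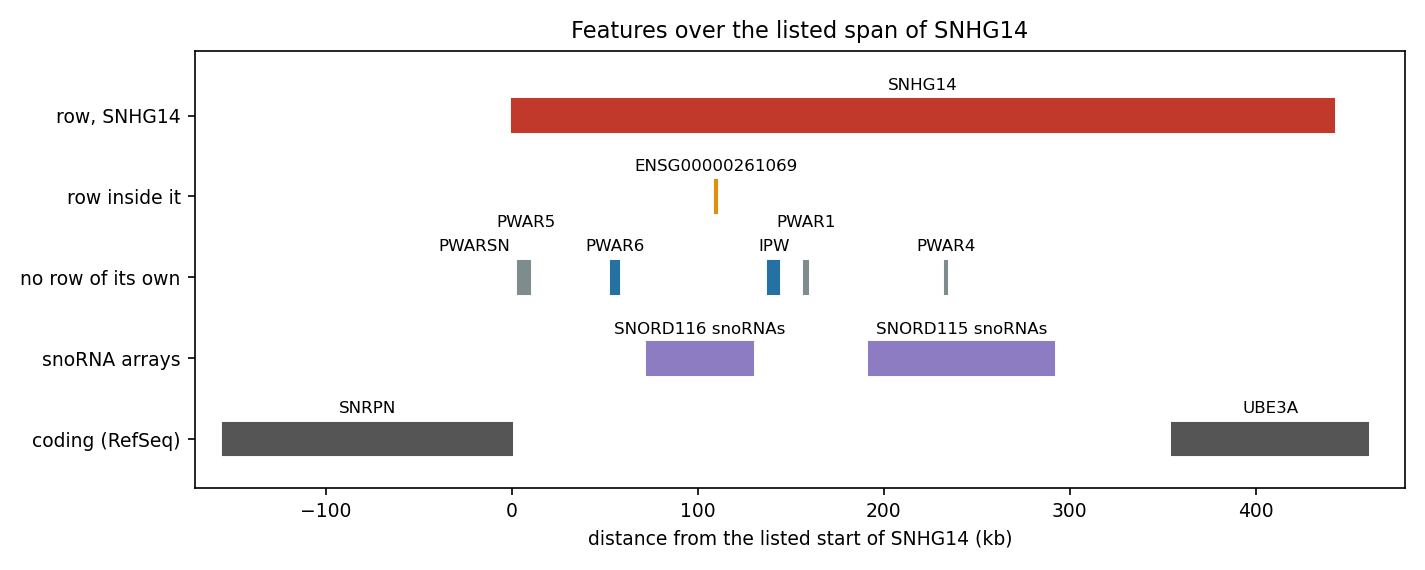
Map of the listed SNHG14 span, with distance in kb from its listed start on the horizontal axis and bars for the SNHG14 row, the row ENSG00000261069 inside it, genes of the region without a row of their own, the snoRNA arrays and the coding genes. PWAR6 and IPW lie within the SNHG14 bar, and UBE3A reaches past its far end.

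A row inside SNHG14 was lower by more than SNHG14 itself. ENSG00000261069 (plus strand, chromosome 15, 25087661 to 25088896) begins at the first base of the snoRNA gene SNORD116-20 and ends at the last base of SNORD116-21 in RefSeq. RNAs with a snoRNA at each end are known from this locus as sno-lncRNAs, which lack a poly(A) tail. All 1236 bases also lie in an SNHG14 exon of GENCODE 29, so reads of an unspliced or retained SNHG14 stretch cannot be told from it. The sequences at its ends are shown because they mark the row as bounded by snoRNAs; they come from the GENCODE 29 transcript, 5′ to 3′, at chr15:25087661-25087754 and chr15:25088803-25088896 on the plus strand of GRCh38. Capitals mark the C box, TGATGA, and the D box, CTGA, which define this snoRNA class, searched on the transcribed strand alone. Of the CTGA matches only the last in each sequence, near the 3′ end, is in capitals, and an inner match is left in lower case.
SNORD116-20: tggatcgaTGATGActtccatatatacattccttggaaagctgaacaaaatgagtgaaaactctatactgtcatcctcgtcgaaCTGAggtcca
SNORD116-21: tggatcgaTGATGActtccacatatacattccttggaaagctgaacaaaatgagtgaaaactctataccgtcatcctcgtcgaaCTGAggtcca
The 2 ends are 94 bases long each and identical at 92 positions. A near-identical copy can split or lose reads, which adds to the uncertainty of this row. Its counts were 22, 29 and 21 in siSFPQ libraries and 89, 70 and 81 in siCtrl libraries. The log2 fold change was -1.82 ± 0.19 (SE, edgeR, adjusted p = 1.20e-20), and the groups did not overlap. The count of this row came to 1.20% to 1.63% of the count of the SNHG14 row in siSFPQ and 2.09% to 2.86% in siCtrl, again without overlap. The 2 rows may share reads, so this may be the ratio of a part to its whole. How many reads were counted in both is not known.

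The libraries were made from polyadenylated RNA, so the annotated 3′ ends of the RNAs bear on what could be captured. The last 60 bases of 1 GENCODE 29 transcript of each are given on the transcribed strand, with the polyadenylation signal AATAAA in capitals, searched on that strand alone. They are from chr15:25375417-25375476 for SNHG14, chr11:1995176-1995235 for H19, chr11:2608328-2608387 for KCNQ1OT1 and chr20:58818919-58818978 for GNAS-AS1 on GRCh38.
SNHG14: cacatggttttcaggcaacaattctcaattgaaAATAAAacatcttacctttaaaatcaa
H19: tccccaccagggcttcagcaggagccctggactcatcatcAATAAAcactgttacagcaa
GNAS-AS1: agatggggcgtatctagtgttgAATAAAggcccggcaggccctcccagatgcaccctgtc
KCNQ1OT1: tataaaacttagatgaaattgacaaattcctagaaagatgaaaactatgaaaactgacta
The signal stood in the last 60 bases of 6 of 12 H19 transcripts, 5 of 26 SNHG14 transcripts, 1 of 4 GNAS-AS1 transcripts and not in the single KCNQ1OT1 transcript. Among 83874 transcripts of non-coding classes in that release, 21.1% had it there. The transcripts shown for SNHG14, H19 and GNAS-AS1 were picked because they hold the signal. The end shown for KCNQ1OT1 lies short of the end of its counted row, at 2597308, which was not searched. The end shown for SNHG14 also lies short of the end of its row, at 25420336. How much of each RNA the selection captured was not measured, so every level here is one of captured RNA.

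Levels were then set side by side per kb of exon, as the table lists exon length. In siSFPQ cells GNAS-AS1 had 12.6 ± 0.988, H19 12.4 ± 3.11, SNHG14 9.05 ± 0.138 and KCNQ1OT1 0.305 ± 0.048 CPM per kb (SD, n = 3). In siCtrl cells H19 stood first with 43.2 ± 4.32 CPM per kb, before SNHG14 with 18.4 ± 0.656, GNAS-AS1 with 11.4 ± 0.647 and KCNQ1OT1 with 0.388 ± 0.062. On the listed lengths H19 and GNAS-AS1 did not differ beyond their spread in siSFPQ, where H19 ran from 8.96 to 14.9 CPM per kb, a range that also holds the mean of SNHG14. In siCtrl no neighbours in the order overlapped. The order rests on the length used. The reads were counted over exons other than those of GENCODE 29, so its lengths do not match the counts. Levels on them show only how the order depends on length. With the exonic lengths of GENCODE 29, the levels in siSFPQ were 26.0 CPM per kb for SNHG14, 19.9 for GNAS-AS1, 14.9 for H19 and 0.308 for KCNQ1OT1. On that scale GNAS-AS1 ran from 18.4 to 21.5 and H19 from 10.7 to 17.8 in siSFPQ, without overlap. In siCtrl the levels were 52.9 CPM per kb for SNHG14, 51.6 for H19, 18.0 for GNAS-AS1 and 0.392 for KCNQ1OT1, and the SNHG14 and H19 libraries overlapped.

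Whether the RNAs moved by different amounts was asked with ratios of counts inside a library, which need no scaling between libraries. H19 stood at 4.10, 4.68 and 2.74 counts per 100 SNHG14 counts in siSFPQ, against 7.04, 5.82 and 6.73 in siCtrl. GNAS-AS1 stood at 6.93, 6.54 and 5.93 per 100 SNHG14 counts in siSFPQ, against 2.80, 2.89 and 2.92 in siCtrl. The groups did not overlap for either ratio. As differences in mean log2 ratio, siSFPQ minus siCtrl, H19 over SNHG14 came to -0.79, GNAS-AS1 over SNHG14 to 1.17, KCNQ1OT1 over SNHG14 to 0.68, KCNQ1OT1 over H19 to 1.47 and ENSG00000261069 over SNHG14 to -0.78. Each of these 5 had an exact permutation p of 0.1 (two-sided, n = 3 each), the smallest that this design allows, and 0.117 after Benjamini-Hochberg adjustment over 7 pairs, so none can pass 0.05. Of the 7 pairs, 4, those with ENSG00000261069, ENSG00000240801 and ENSG00000293655 and that of H19 with SNHG14, were chosen after the data were examined.

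**Figure D3:**
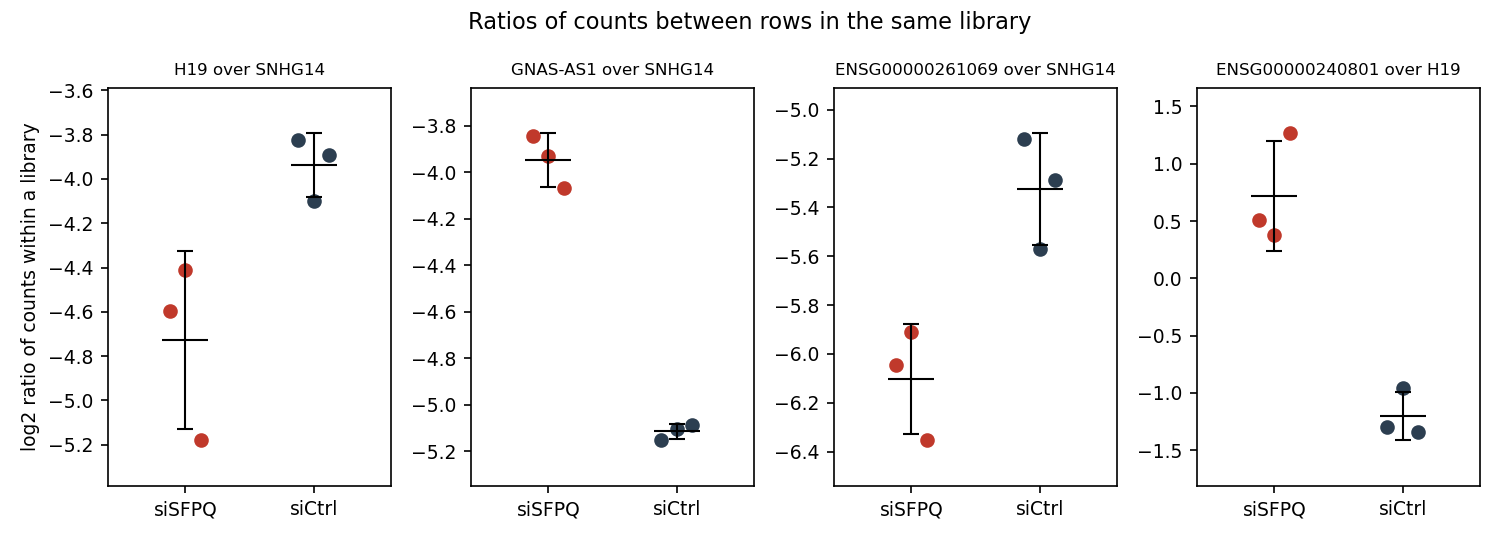
Log2 ratio of counts between rows of the same library, with each library as a point and the mean ± SD of 3 libraries as black bars, siSFPQ left and siCtrl right, each panel on its own axis. In each of the 4 panels the groups do not overlap. H19 and ENSG00000261069 are lower relative to SNHG14 in siSFPQ, GNAS-AS1 is higher relative to it and ENSG00000240801 is higher relative to H19. The panels show 4 of 7 pairs, and of these panels all but that of GNAS-AS1 were chosen after the data were examined. The groups overlap for ENSG00000293655 over GNAS-AS1, which is not shown.

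None of the tested rows near the RNAs that overlap none of them was lower by as much as SNHG14 or H19. Within 250 kb of the 6 measured RNAs lay 80 such rows, of which 9 were tested: 1 was called higher, 2 lower and 6 not, beside 24.5% higher and 24.0% lower among all tested genes. Their log2 fold changes ran from -0.40 to 0.63, with a median of 0.04. Beside H19, ENSG00000240801 (chromosome 11, 2129121 to 2129964) lies wholly within exons of IGF2 on the same strand, so its counts may be those of IGF2. It had 87, 108 and 116 counts in siSFPQ libraries and 89, 100 and 84 in siCtrl libraries. The log2 fold change was 0.10 ± 0.13 (SE, edgeR, adjusted p = 0.524), which was not called, with overlapping groups. H19 thus stood at 41.4 to 76.9 counts per 100 of that row in siSFPQ, against 195 to 255 in siCtrl. The difference in mean log2 ratio of ENSG00000240801 over H19, siSFPQ minus siCtrl, was 1.92 (exact permutation p = 0.1, two-sided, the smallest possible).

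Of the other neighbours of H19 and KCNQ1OT1, PRADX, a long non-coding RNA, was called lower at -0.40 (log2 fold change, edgeR, adjusted p = 6.60e-06). CD81-AS1, antisense to the tetraspanin gene CD81, was called lower at -0.27 (edgeR, adjusted p = 0.034), with overlapping groups. That call was lost in 8 of 16 alternative settings, the leaving out of siCtrl replicate 2 (edgeR, adjusted p = 0.119), siCtrl replicate 3 (0.110), siSFPQ replicate 1 (0.074) or siSFPQ replicate 3 (0.185) among them. SLC22A18AS, antisense in the imprinted domain of KCNQ1OT1, had a log2 fold change of -0.17 ± 0.20 (SE) and was not called (edgeR, adjusted p = 0.503). Near GNAS-AS1, APCDD1L-DT, a divergent transcript, rose by 0.63 on the log2 scale (edgeR, adjusted p = 6.86e-12), with 225, 209 and 195 CPM in siSFPQ and 133, 143 and 129 CPM in siCtrl. Also near GNAS-AS1, ENSG00000289837 had 50.4, 51.1 and 54.9 CPM in siSFPQ and 46.4, 34.0 and 43.4 CPM in siCtrl, without overlap. Its log2 fold change of 0.34 ± 0.15 (SE) just missed the threshold (edgeR, adjusted p = 0.0505). It was called higher in 4 of 16 alternative settings, the leaving out of siCtrl replicate 1 among them (edgeR, adjusted p = 0.033), with adjusted p from 0.018 to 0.349 over all 16. ENSG00000293655, which overlaps GNAS-AS1 on its strand and may share its reads, had 51, 43 and 37 counts in siSFPQ and 40, 49 and 43 in siCtrl, and its log2 fold change of -0.09 was not called (adjusted p = 0.716, edgeR). Its ratio to GNAS-AS1 differed by -0.24 in mean log2 (exact permutation p = 0.3, two-sided). No row near SNHG14, MEG3 or PEG13 passed the filter apart from ENSG00000261069.

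**Figure D4:**
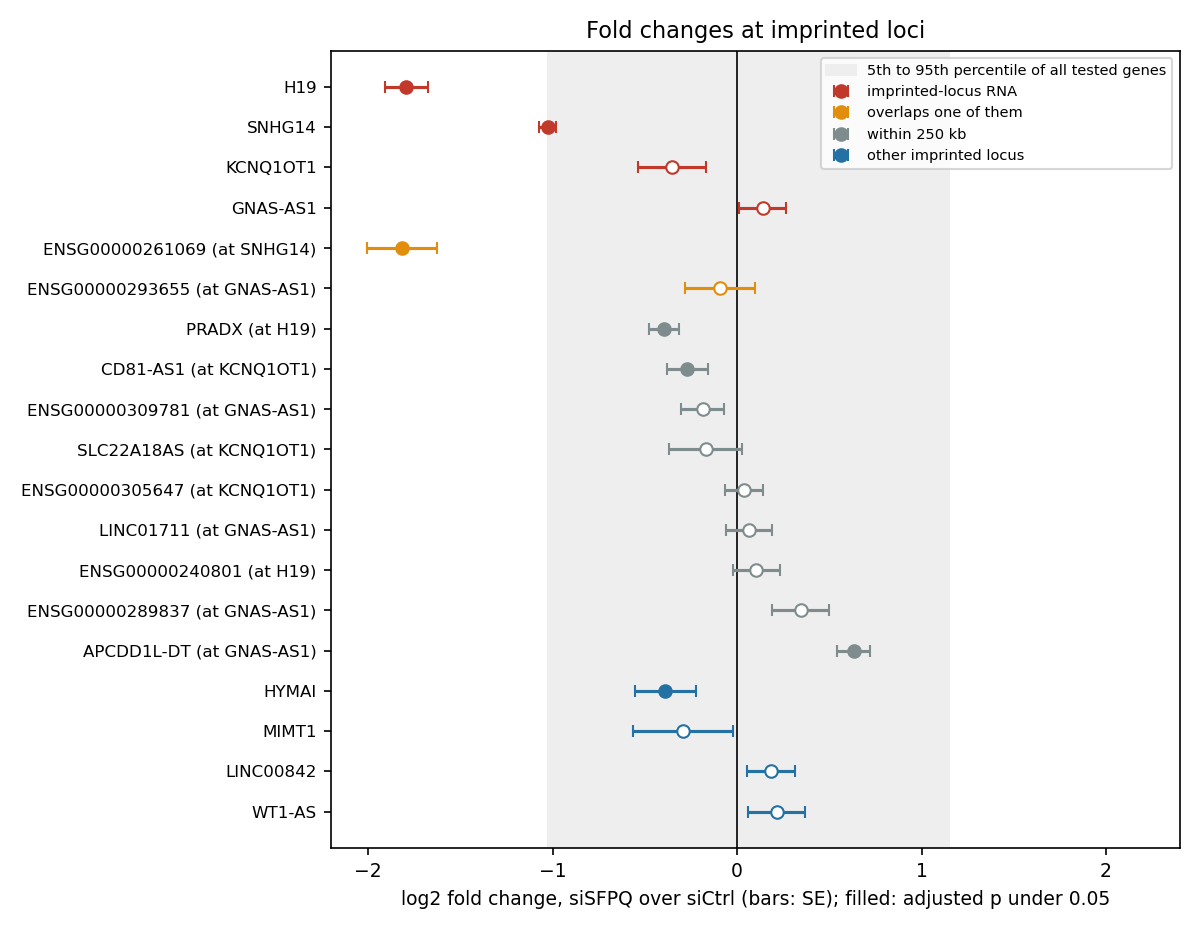
Log2 fold change of siSFPQ over siCtrl with its SE for the 4 tested RNAs, tested rows that overlap them, tested rows within 250 kb and other tested genes of imprinted loci; filled points passed an adjusted p of 0.05, and the grey band runs from the 5th to the 95th percentile of all tested genes, -1.02 to 1.15. H19 and ENSG00000261069 lie beyond the band at -1.79 and -1.82, SNHG14 is at its lower edge, and the neighbouring rows lie inside it.

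Other non-coding genes named for imprinted loci were taken from a list of 50 symbols, of which 18 had a row and 4 were tested; 3 of the rows had no count. Of the 4, 1 was called lower and 0 higher by edgeR (0 higher also at an unadjusted p under 0.05), with a median log2 fold change of -0.05. As 24.0% of all tested genes were called lower and 24.5% higher, 1 of 4 lower is near the background share. HYMAI, a paternally expressed RNA of the PLAGL1 locus on chromosome 6, had 34.4, 43.0 and 27.8 CPM in siSFPQ and 48.5, 43.5 and 46.4 CPM in siCtrl. The groups did not overlap, as was so for 54.0% of tested genes, but the highest siSFPQ library was just under the lowest siCtrl library. The log2 fold change of HYMAI was -0.39 ± 0.16 (SE, edgeR, adjusted p = 0.039). The HYMAI call was lost in 9 of 16 alternative settings, with adjusted p from 0.0092 to 0.295 over all 16. It was lost without siCtrl replicate 1 (edgeR, adjusted p = 0.104), siCtrl replicate 3 (0.065), siSFPQ replicate 1 (0.084) or siSFPQ replicate 3 (0.295). In GENCODE 29, 8.63% of the HYMAI exonic bases are also exon of PLAGL1 on the same strand, whose reads these counts may hold.

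MIMT1, an RNA of the imprinted PEG3 domain on chromosome 19, had 12.8 ± 1.89 CPM in siSFPQ and 15.6 ± 1.39 CPM in siCtrl (SD, n = 3 each) and was not called (edgeR, adjusted p = 0.379). WT1-AS, antisense at the tumour suppressor gene WT1, had 49.8 ± 5.57 CPM in siSFPQ and 43.2 ± 2.12 CPM in siCtrl and was not called (edgeR, adjusted p = 0.245). LINC00842 on chromosome 10, whose imprinting is not documented in the sources used here, had 66.4 ± 2.82 CPM in siSFPQ and 58.1 ± 9.71 CPM in siCtrl and was not called either (edgeR, adjusted p = 0.249). Among the 14 rows that did not pass the filter, COPG2IT1, an RNA inside COPG2 beside the imprinted gene MEST on chromosome 7, had 1, 0 and 1 counts in siSFPQ libraries and 5, 3 and 6 in siCtrl libraries. Its ratio of 0.135 has a 95% exact counting interval of 0.015 to 0.587. It was named after its counts were seen, and edgeR called it lower with no filter (adjusted p = 0.027). It passed a looser filter, at least 1 CPM in 3 libraries, through the siCtrl libraries alone, so its call lower under that filter is no support. Its listed span shares 114 bases with exons of COPG2 on the other strand in GENCODE 29, whose reads these counts may hold. The long imprinted antisense RNA AIRN had no count, and IGF2-AS had 11 counts over siSFPQ and 15 over siCtrl libraries.

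The tested rows whose profile over the 6 libraries lay nearest to that of SNHG14, by Euclidean distance of centred log2 CPM among 6318 rows with a mean of at least 5 CPM, were ENSG00000267745 on chromosome 17 at a distance of 0.087, LINC00937 on chromosome 12 at 0.104 and ENSG00000305576 on chromosome 11 at 0.107. The median row lay at 1.39. LINC00937, the most abundant of them, had 228 ± 11.6 CPM in siSFPQ and 479 ± 13.0 CPM in siCtrl. Nearest to KCNQ1OT1 were ENSG00000277182 on chromosome 17 at 0.111, MAP9-AS1 on chromosome 4 at 0.142 and ENSG00000289885 on chromosome 3 at 0.151, where the median row lay at 0.922. All these profiles share the same 6 libraries in 2 groups, and the group difference is part of the distance.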

How the data were processed

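The deposited table gave whole-number read counts per gene, with gene coordinates and exonic length; per the labels' protocols the libraries were poly(A)-selected and stranded. The aligner, counter, annotation and build are not given in the sources used here. All 13886 identifiers shared with GENCODE 29 (GRCh38) lay on the same chromosome and 13874 at an overlapping position, so coordinates were read as GRCh38. MALAT1 and TALAM1, on opposite strands, held 72563 and 72552 counts, so the counts were read as not separating strands, and overlapping genes may share reads.

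The test was that of edgeR 4.0.16 (R 4.3.3), a robust quasi-likelihood fit with group alone, after TMM scaling and the filter filterByExpr, adjusted by Benjamini-Hochberg over all tested genes; limma 3.58.1 and DESeq2 1.42.0 were alternatives. CPM uses the TMM-scaled totals of the tested genes, and ratios add 0.5 to each count. No 2 libraries of a group agreed within sampling noise (chi-square per degree of freedom 1.19 to 1.33). The members and lists were chosen with earlier results of these data known. Named were all 8 RNAs, tested rows overlapping them, other tested imprinted-locus genes and the 3 nearest profiles of SNHG14 and KCNQ1OT1; neighbours within 250 kb were added after the data were examined. Ratios planned for PWAR6, IPW, MEG3 and PEG13 could not be formed, for want of a row or of 10 counts. GENCODE 29 transcripts gave the sequences.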

Additional observations from a re-analysis of the deposited data

How the results depend on the processing

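SNHG14 and H19 stayed called lower in all 16 alternative settings, with log2 fold changes of -1.06 to -0.96 and of -1.96 to -1.60. Scaling from rows without coding exon overlap and DESeq2 on the edgeR-filtered genes were added after the data were examined. GNAS-AS1 was called in none of the 16 and ran from 0.09 to 0.20. KCNQ1OT1 ran from -0.46 to -0.23 with 1 library left out and was called only without siCtrl replicate 3, so 2 to 3 RNAs were then called lower. Over the whole table, leaving out 1 library gave 1382 to 1464 genes higher and 1378 to 1440 lower. DESeq2 gave 858 higher and 904 lower, and 1013 higher and 1074 lower on the edgeR-filtered genes; the cause was not tested. Plain library totals moved the median log2 fold change of all tested genes to 0.07 and gave 1762 genes higher and 1304 lower. Of the other imprinted-locus genes, 0 were called lower with plain library totals, with DESeq2 and with DESeq2 on the edgeR-filtered genes, and 0 to 1 with 1 library left out; the cause was not tested. A minimum of 1 CPM in 3 libraries, planned as a stricter filter, proved looser and kept 11651 genes, against 6325. With it, and with no filter, the 1 call was that of COPG2IT1, not of HYMAI. COPG2IT1 passed that minimum through the siCtrl libraries alone. The replicate numbers showed no sign of pairing the samples (correlations of deviations of -0.004, 0.001 and 0.007 between libraries of the same number). Such correlations cannot exclude a pairing, and the labels name none. The replicate block gave 1535 genes higher and 1515 lower and the same 2 RNAs lower.

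Uncalled rows that turned sign with 1 library left out were ENSG00000305647 (-0.065 to 0.10), SLC22A18AS (-0.35 to 0.076), ENSG00000293655 (-0.30 to 0.043), LINC01711 (-0.052 to 0.13) and HULC (-0.12 to 0.53). ENSG00000289837 was called higher with plain library totals (adjusted p = 0.018), limma-voom (0.046), the replicate block (0.047) and without siCtrl replicate 1 (0.033). The differences in log2 ratio kept their sign with each library left out and with a pseudocount of 1, that of H19 over SNHG14 from -0.95 to -0.56. Low counts limit MEG3, PEG13 and COPG2IT1, and 3 libraries a group limit the permutation tests.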
